A study of Mus musculus with 6 samples.

Results

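The genes examined were those whose array names belong to the DNA repair families. They were chosen as the non-control probes with a file name starting with Fanca to Fancm, Rad and a digit, Xrcc, Msh, Mlh, Pms1 or Pms2, Ercc, Brca1 or Brca2, Lig1, Lig3 or Lig4, Parp and a digit, Chek1 or Chek2, or being Atm, Atr, Xpa, Xpc, Ung or Ogg1. The rule found 130 probes of 72 genes, out of 27947 genes on the array, and it used names only and no measured value. Of the 72 genes, 71 were measured by at least 1 probe that was well above background, and 117 of the 130 probes entered the comparison. Msh4 was not measured. Atr was not among the names found. The name is wider than the pathway. Here 59 of the genes are counted as acting in repair or in the checkpoint that signals damage. The other 13 share a family name and are set apart, which does not exclude a part in repair. These 13 are 9 poly(ADP-ribose) polymerases (PARPs) other than Parp1 and Parp2, the cohesin subunit Rad21, the mitotic helicase Ercc6l, Rad54l2 and Atp23, listed on the array as Xrcc6bp1. Parp3 is set with the 9, although it is known to act at broken ends too.

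DNA repair works through several routes that start from different lesions. Mismatch repair corrects copying errors behind the replication fork, base excision repair removes single damaged bases, and nucleotide excision repair cuts out bulky lesions. Double-strand breaks are either joined directly by end joining or copied from the sister chromatid by homologous recombination, while the Fanconi anaemia proteins take apart links between the strands. Checkpoint kinases sense damage and hold the cell cycle, and mouse ES cells, which divide fast, are known for high levels of mismatch and recombination repair proteins.

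RNA of mouse embryonic stem cells (mES), derived from the blastocyst, and of epiblast stem cells (EpiSC), derived from the epiblast after implantation, was hybridised to 1-colour arrays, 3 per group. The mES arrays were replicate 1 (line ESF122), replicate 2 (ESF175/1) and replicate 3 (ESF58/2, or ESF58/1 in another label). The lines of the EpiSC arrays were EpiSC-5 (replicate 1) and EpiSC-7 at passages 20 (replicate 2) and 25 (replicate 3), which makes 2 lines. All cells grew on irradiated mouse embryonic fibroblasts in medium with KSR serum replacement, mES with LIF and EpiSC with FGF2, and nothing else about genotype or treatment is given in the labels. The factor, the slide and the scan went with the group and cannot be told apart from the cell type. Nothing says that the RNAs came from separate cultures of a line, so that p-values speak of the spread among these 6 samples alone. In bulk RNA, fewer cells of a type and less RNA per cell cannot be told apart.

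On each array 66.2% to 75.4% of 41174 probes were well above background, and the 75th percentile of the signal ranged from 618 to 974. Values below are the scaled signal, which is the processed signal over that percentile of the same array, so that 1 is the level of the percentile. A probe's signal is compared between arrays only, never with that of another probe. All 7 mES markers fell and all 7 EpiSC markers rose, with scaled signals, summed over the genes that have a value on all 6 arrays, of 75.2, 126.5 and 188 (mES) against 3.45, 2.61 and 3.38 (EpiSC) for 6 genes of the first list and 7.34, 5.75 and 2.74 against 123.0, 67.0 and 136 for the 7 of the second. Fibroblast markers, which would come from the feeder cells, were high on 4 arrays and low on mES replicate 2 and EpiSC replicate 3. Summed in the same way over 14 genes, their scaled signal was 56.5, 10.8 and 108.5 in mES and 83.6, 50.05 and 9.14 in EpiSC, with 14 of 15 well above background on all 6 arrays and 0 of 15 past the threshold.

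Many more repair genes were lower than higher in EpiSC compared with mES cells. Of the 71 measured, 25 fell and 3 rose at an adjusted p under 0.05 (limma, adjusted over all 20127 genes tested). A log2 fold change below 0 was seen for 57 of the 71 (80.3%), beside 57.5% of all genes. The mismatch recognition gene Msh6, the checkpoint clamp gene Rad9b, the recombination gene Rad51c and the Ku80 gene Xrcc5 were among the decreases. The 3 increases were Parp8, Parp3 and Parp11, all PARPs set apart above. With this assignment, of 58 measured genes counted as acting in repair or its checkpoint 24 fell (41.4%, beside 15.1% of all genes) and 0 rose. The 0 rests on the assignment, since it sets apart all 3 that rose. Counting Parp3 as a repair gene would make this 1 rise.

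The background is wide, since 26.6% of all genes passed the threshold, 11.4% higher and 15.1% lower in EpiSC. Among the repair genes 39.4% passed, with 35.2% lower and 4.2% higher. The median log2 fold change (EpiSC minus mES) was -0.45 for the repair genes and -0.13 for all genes. A fold of at least 2 was reached by 11 of the lower and 2 of the higher repair genes. Among all 20127 genes tested, 1950 lower and 1735 higher genes that passed reached it. Groups without any overlap of their 3 values were seen for 45 of the 71 (63.4%), against 48.9% of all genes. In 39 of these 45 the EpiSC values were the lower ones, beside 5948 of 9833 among all genes. No list test was made, and these shares are a description.

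**Figure D1:**
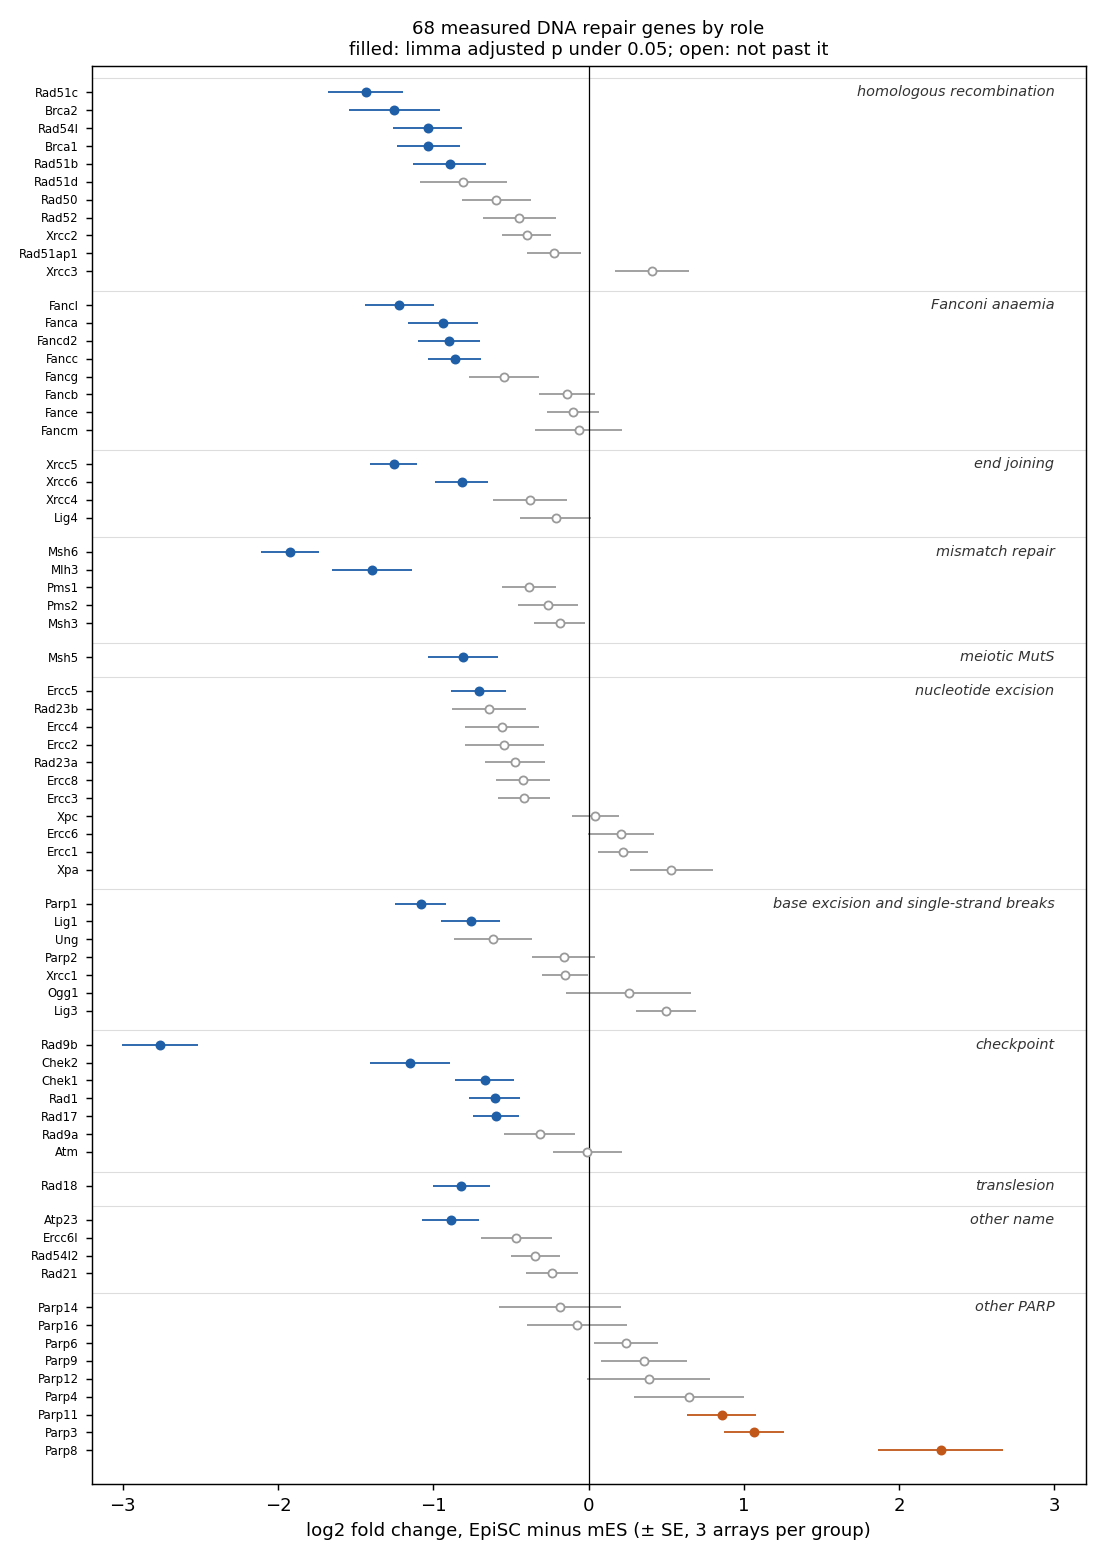
Log2 fold change, EpiSC minus mES, of 68 of the 71 measured genes, with its limma standard error (3 arrays per group), grouped by role; filled points passed an adjusted p of 0.05 and open points did not. The filled points left of 0 are 24 of the 25 genes that fell, spread over every role but the other PARPs, and the 3 filled points right of 0 are Parp11, Parp3 and Parp8.

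The count of calls varied with which array was left out. In leave-one-out fits, which drop 1 array each, it was 16 without mES replicate 1, 10 without mES replicate 2, 9 without EpiSC replicate 1 and 11 without EpiSC replicate 3, against 25 and 27 without mES replicate 3 and EpiSC replicate 2. The share that fell was 9.9% without EpiSC replicate 1, beside 9.0% of all genes, 11.3% without mES replicate 2, beside 8.0%, and 11.3% without EpiSC replicate 3, beside 7.6%. It was 19.7% without mES replicate 1, beside 9.3%, 32.4% without mES replicate 3, beside 13.6%, and 35.2% without EpiSC replicate 2, beside 13.7%. In a fit of the 4 arrays that lay at position 4 of a slide this share was 8.5%, beside 7.1%. With neither of the arrays low in fibroblast markers, a fit of 4 arrays, 4 repair genes passed, and 4.2% fell beside 3.5% of all genes. The median log2 fold change over the repair genes lay between -0.48 and -0.36 in all alternatives. Msh6, Rad9b, Xrcc5 and Parp8 passed in all 19 alternatives, and Rad51c, Mlh3, Fancl, Parp1 and Parp3 passed whichever single array was left out.

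**Figure D2:**
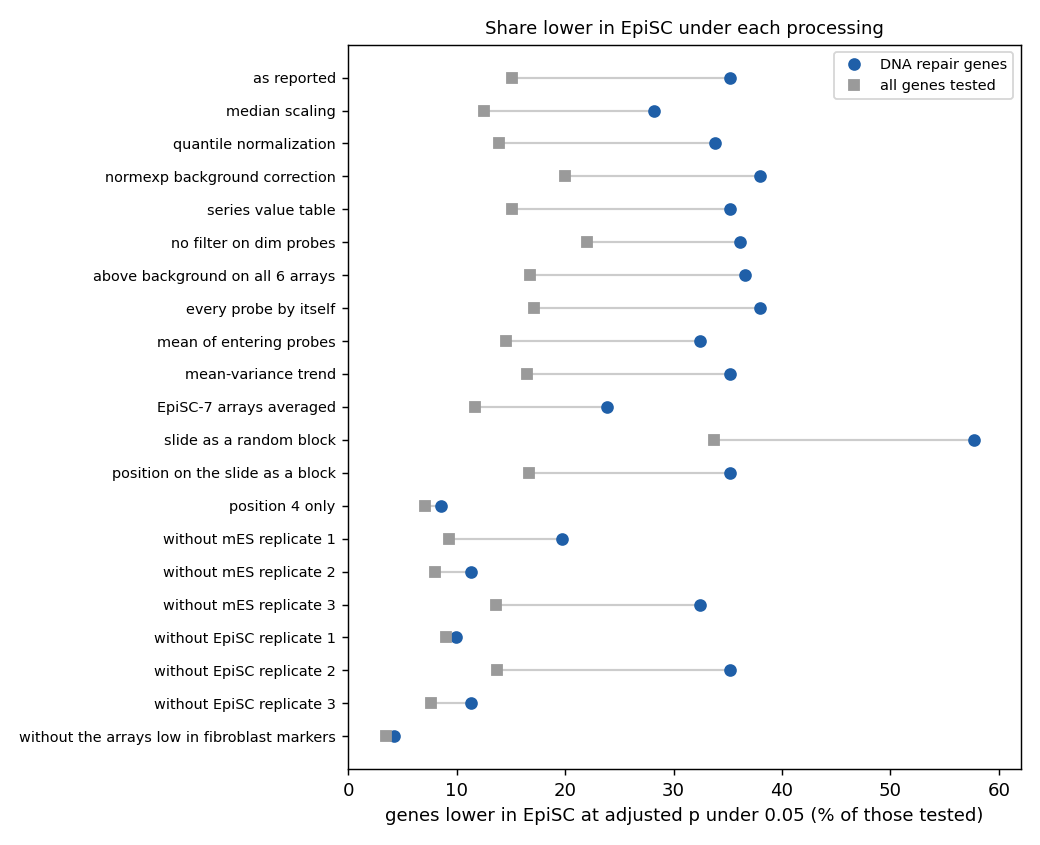
Share of genes lower in EpiSC at an adjusted p under 0.05, in percent of those tested, for the repair genes (circles) and for all genes (squares) under each processing. The repair genes lie at 35.2% against 15.1% as reported, and the circles and squares come close in some fits with 1 array fewer (9.9% against 9.0% without EpiSC replicate 1) and stay apart in others (35.2% against 13.7% without EpiSC replicate 2).

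The 4 genes that passed in all 19 alternatives are shown with the 250 bases before their start, as the region that holds their promoters. They are from RefSeq on GRCm38.p6, each on the strand of its gene: Msh6 at chr17:87974800-87975049 (plus strand), Rad9b at chr5:122354206-122354455 (minus strand), Xrcc5 at chr1:72307171-72307420 (plus strand) and Parp8 at chr13:117025532-117025781 (minus strand). Capitals mark every match, on either strand, to 6 motifs: the E2F element TTTNGCGC, the CCAAT box CCAAT, the GC box GGGCGG, the NRF1 core GCGCATGC, the E-box CACGTG and the CHR element TTTGAA.
Msh6: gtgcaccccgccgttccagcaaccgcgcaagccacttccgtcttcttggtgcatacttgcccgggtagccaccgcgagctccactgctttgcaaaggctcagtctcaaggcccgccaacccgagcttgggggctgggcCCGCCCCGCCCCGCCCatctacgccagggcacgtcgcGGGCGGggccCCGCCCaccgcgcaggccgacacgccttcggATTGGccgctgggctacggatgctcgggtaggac
Rad9b: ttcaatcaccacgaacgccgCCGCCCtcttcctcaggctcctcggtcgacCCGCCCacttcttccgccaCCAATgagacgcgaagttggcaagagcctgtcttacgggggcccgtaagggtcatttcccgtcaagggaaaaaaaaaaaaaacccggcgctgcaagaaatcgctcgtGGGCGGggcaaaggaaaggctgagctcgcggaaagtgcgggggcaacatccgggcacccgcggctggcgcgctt
Xrcc5: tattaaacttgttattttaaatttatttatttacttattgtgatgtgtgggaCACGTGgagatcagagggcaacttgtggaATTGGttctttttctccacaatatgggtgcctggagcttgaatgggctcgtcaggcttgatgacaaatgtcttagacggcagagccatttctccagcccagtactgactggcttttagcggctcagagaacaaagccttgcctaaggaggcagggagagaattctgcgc
Parp8: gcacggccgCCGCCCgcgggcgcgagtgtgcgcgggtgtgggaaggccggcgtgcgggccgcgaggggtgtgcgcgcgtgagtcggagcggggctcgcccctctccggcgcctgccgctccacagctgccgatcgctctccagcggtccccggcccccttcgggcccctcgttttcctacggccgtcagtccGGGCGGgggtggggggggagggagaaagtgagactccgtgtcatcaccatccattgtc
Msh6 held 5 GC boxes and 1 CCAAT box, Rad9b 3 GC boxes and 1 CCAAT box, and Parp8, the one of the 4 that rose, 2 GC boxes. Xrcc5 held no GC box, 1 CCAAT box and 1 E-box, and 5 CpG dinucleotides against 27, 26 and 34 in Msh6, Rad9b and Parp8. Runs of capitals in Msh6 are GC boxes that lie side by side.

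Over the 56 repair genes with an entry, which have 66 promoters, the median number of CpG dinucleotides was 18, against 6 over all 32851 promoters, and the median GC content was 58.6% against 52.4%. A CCAAT box stood in 50% of the repair promoters (33.8% of all), a GC box in 50% (32.7%), an NRF1 core in 13.6% (2.3%), an E-box in 10.6% (6.0%), an E2F element in 3.0% (1.1%) and a CHR element in 6.1% (16.0%). The E2F element and the NRF1 core share the letters GCGC. Among the repair genes, 31 promoters of 23 genes that fell held a CCAAT box in 48.4% and a GC box in 38.7%. In 30 promoters of 29 genes that did not pass the shares were 53.3% and 63.3%. A gene with several promoters counts once for each, and the difference was not tested. These are matches of letters only.

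Mismatch repair genes gave one of the largest decreases and several small differences. Msh6, which recognises single mismatches, had scaled signals of 93.2, 102 and 113 on mES replicates 1 to 3 and 23.7, 32.1 and 25.8 on EpiSC replicates 1 to 3. The lowest mES value lay well above the highest EpiSC value, and the gene was 3.79-fold lower in EpiSC (-1.92 ± 0.19 on the log2 scale, with the standard error over 3 arrays per group as for all values below; adjusted p = 0.00152). Mlh3, the MutL partner that also acts in meiotic crossing over, fell 2.63-fold, from 0.928, 0.963 and 0.795 to 0.294, 0.483 and 0.275 (-1.40 ± 0.26, adjusted p = 0.0114). Its groups did not overlap, and EpiSC replicate 2 was the nearest to the mES values. A fall of this size was also seen at its second probe (-1.30, adjusted p = 0.0549), which missed the threshold.

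The MutL gene Pms2 did not pass (-0.26 ± 0.19, adjusted p = 0.346; second probe -0.79, adjusted p = 0.182). Of 7 measured mismatch genes 2 fell (28.6%, beside 15.1% of all genes) and 0 rose. Their median log2 fold change was -0.38, and all 7 were below 0 by their brightest probe. At further probes Pms1 gave 0.35 and Msh3 gave 0.43, -0.28 and -0.46, none past the threshold. Msh5, which acts in meiotic recombination, had a dim probe, at 0.0591, 0.0476 and 0.0362 in mES and 0.0277, 0.0289 and 0.0237 in EpiSC. It passed (-0.81 ± 0.23, adjusted p = 0.0426) in 1 of 6 leave-one-out fits (adjusted p = 0.127 without EpiSC replicate 3), and its other probe gave 0.20.

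**Figure D3:**
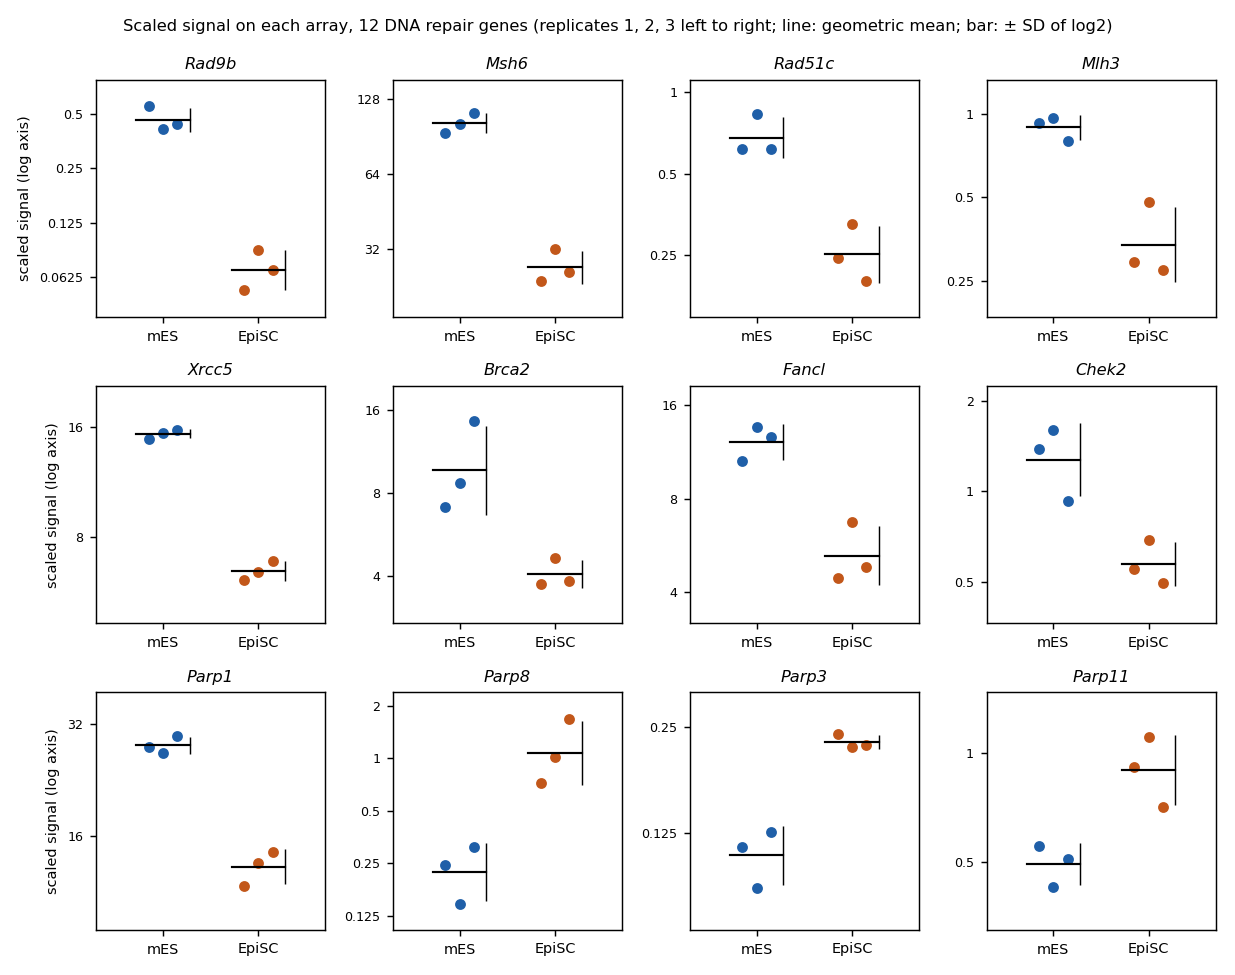
Scaled signal (processed signal over the array's 75th percentile, log axis) of 12 genes on each array, with replicates 1, 2 and 3 from left to right, the geometric mean as a line and the SD of log2 values as a bar. The genes were chosen among those whose groups do not overlap, so the gap in each panel follows from the choice. Msh6 spans 93.2 to 113 in mES and 23.7 to 32.1 in EpiSC, and Parp8 is higher in EpiSC.

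Of 12 homologous recombination genes 6 fell, among them Brca1 and Brca2. Brca2, a mediator of strand invasion, had 7.08, 8.71 and 14.6 against 3.73, 4.65 and 3.84 (-1.25 ± 0.29, adjusted p = 0.0248). All 3 mES values were higher, but mES replicate 3 stood above the other mES arrays, and Brca2 passed in 3 of 6 leave-one-out fits (adjusted p = 0.0816 without EpiSC replicate 3). Its second probe passed too (-1.03, adjusted p = 0.0118).

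Brca1, the ubiquitin ligase subunit that acts in end resection, had 5.90, 7.94 and 8.21 in mES and 3.32, 3.31 and 4.10 in EpiSC. It was 2.04-fold lower with no overlap (-1.03 ± 0.20, adjusted p = 0.0144), and was called in 4 of 6 leave-one-out fits (adjusted p = 0.0537 without EpiSC replicate 1). Rad51b, Rad51c, Rad51d, Xrcc2 and Xrcc3 are paralogs that assist strand exchange. Of these Rad51c fell most, from 0.616, 0.828 and 0.614 to 0.244, 0.324 and 0.201 (-1.44 ± 0.24, adjusted p = 0.00845). Rad51b fell as well (-0.89 ± 0.24, adjusted p = 0.0358; adjusted p = 0.109 without EpiSC replicate 1). The other paralogs did not pass, with log2 fold changes of -0.81 for Rad51d, -0.40 for Xrcc2 and 0.41 for Xrcc3. By the brightest probe, Xrcc3 was the only recombination gene above 0. Further probes of Rad51d gave 0.58 and -0.20, neither past the threshold. The gene of the DNA motor protein Rad54l had 3.15, 4.18 and 4.97 against 2.04, 2.16 and 1.73 (-1.03 ± 0.22, adjusted p = 0.0188; adjusted p = 0.0672 without EpiSC replicate 3). Over the 12 recombination genes 0 rose, and the median was -0.78, beside -0.13 for all genes.

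Of 8 Fanconi anaemia genes 4 fell and 0 rose, with a median of -0.70. Among all genes 15.1% fell and 11.4% rose, with a median of -0.13. Fancl, the ubiquitin ligase of the core complex, had 10.6, 13.6 and 12.6 in mES and 4.43, 6.74 and 4.81 in EpiSC. No value overlapped, and it was 2.33-fold lower (-1.22 ± 0.22, adjusted p = 0.0111; second probe -0.90, adjusted p = 0.0357). Its target Fancd2 fell from 1.43, 1.77 and 1.45 to 0.694, 0.976 and 0.832 (-0.90 ± 0.20, adjusted p = 0.0208). Fanca, a core subunit, fell from 6.07, 8.24 and 8.90 to 3.69, 4.83 and 3.55 (-0.94 ± 0.22, adjusted p = 0.0265). In both genes the groups stood apart, and each passed in 2 of 6 leave-one-out fits (worst adjusted p = 0.0684 for Fancd2 without EpiSC replicate 1 and 0.0879 for Fanca without EpiSC replicate 3). Fancc fell too (-0.86 ± 0.17, adjusted p = 0.0145; adjusted p = 0.0553 without EpiSC replicate 1). The core genes Fancb (-0.14), Fance (-0.10) and the translocase gene Fancm (-0.06; second probe -0.69, adjusted p = 0.0719) did not pass, and each changed sign in at least 1 alternative. Fancg did not pass either, and its probes differed in sign, with the values given with the other probes.

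The Ku genes led the end joining group. Ku is the ring that binds broken ends, and its larger subunit gene Xrcc5 had closely spaced values, 14.8, 15.5 and 15.7 in mES and 6.07, 6.41 and 6.85 in EpiSC. The gap between the groups was wide against a spread within groups of 0.04 (mES) and 0.09 (EpiSC) on the log2 scale (SD), and Xrcc5 was 2.38-fold lower (-1.25 ± 0.15, adjusted p = 0.00304). Xrcc6, the other subunit, had 4.26, 4.25 and 3.95 against 2.18, 2.73 and 2.19. It fell by less (-0.82 ± 0.17, adjusted p = 0.0169), and was called in 2 of 6 leave-one-out fits (adjusted p = 0.0623 without EpiSC replicate 1). The difference between the subunits' changes was not tested. The ligase gene Lig4 (-0.21 ± 0.23, adjusted p = 0.512) and its partner Xrcc4 (-0.38 ± 0.24, adjusted p = 0.267), which seal the break, did not pass, and the groups overlapped for both. All 4 were below 0 by their brightest probe, with a median of -0.60. Second probes gave 0.015 for Lig4 and -0.64 for Xrcc4, neither past the threshold.

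In nucleotide excision repair 1 of 11 fell (9.1%, beside 15.1% of all genes) and 0 rose, with a median of -0.42. The gene that fell was Ercc5, the XPG endonuclease, with 0.907, 1.09 and 0.871 in mES and 0.550, 0.657 and 0.547 in EpiSC. Its groups did not overlap (-0.71 ± 0.18, adjusted p = 0.0309), and was called in 2 of 6 leave-one-out fits (adjusted p = 0.0972 without EpiSC replicate 1). The damage sensor gene Xpc was level, at 1.95, 1.99 and 2.06 against 2.12, 2.13 and 1.94 (0.04 ± 0.15, adjusted p = 0.846). Here the groups overlapped. Xpa, a scaffold of the incision complex, had 0.467, 0.472 and 0.260 against 0.528, 0.555 and 0.592, and Ercc1, subunit of the other nuclease, 3.44, 2.81 and 3.103 against 3.67, 3.76 and 3.46. Both had all EpiSC values above all mES values, but neither difference passed (0.53 ± 0.27, adjusted p = 0.181, and 0.22 ± 0.16, adjusted p = 0.331). The others ranged from -0.64, for Rad23b, whose probes differed in sign, to 0.21. Ercc4 was among them at -0.56 (adjusted p = 0.128), and its second probe passed (-0.99, adjusted p = 0.0268).

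In base excision and single-strand break repair 2 of 7 fell (28.6%, beside 15.1% of all genes) and 0 rose. Parp1, which senses breaks and marks them with poly(ADP-ribose), had 27.7, 26.7 and 29.6 in mES and 11.7, 13.6 and 14.5 in EpiSC. The groups lay far apart, the gene was 2.12-fold lower (-1.08 ± 0.16, adjusted p = 0.00619), and its second probe gave -1.04 (adjusted p = 0.0108). The ligase gene Lig1, which also joins replication fragments, had 41.5, 49.7 and 53.2 against 24.5, 31.3 and 29.6, with no overlap (-0.76 ± 0.19, adjusted p = 0.0291). It passed in 2 of 6 leave-one-out fits (adjusted p = 0.093 without EpiSC replicate 1). Lig3, the other ligase of this pathway, had 1.02, 1.01 and 0.737 against 1.29, 1.24 and 1.35. Its EpiSC values were all the higher ones, yet it did not pass (0.50 ± 0.19, adjusted p = 0.098). Xrcc1, the scaffold that Lig3 binds, had 14.0, 15.5 and 14.5 against 13.6, 13.2 and 12.8 (-0.15 ± 0.15, adjusted p = 0.472), and its sign turned with quantile normalization (0.05). The uracil glycosylase gene Ung (-0.62 ± 0.25, adjusted p = 0.114) and Ogg1, which removes oxidised guanine (0.26 ± 0.40, adjusted p = 0.657), did not pass, and Ogg1 varied from 0.602 to 1.86 among the mES arrays. The median of the 7 was -0.16, near that of all genes.

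The largest decrease among the repair genes was that of a checkpoint gene. Rad9b, a paralog of the clamp subunit Rad9a, had scaled signals of 0.550, 0.410 and 0.441 in mES and 0.0529, 0.0884 and 0.0687 in EpiSC. All 6 arrays had it well above background, and it was 6.77-fold lower in EpiSC with no overlap (-2.76 ± 0.24, adjusted p = 0.00107). Rad9a itself did not pass, at 1.33, 1.73 and 1.27 against 1.11, 1.44 and 0.950 (-0.31 ± 0.23, adjusted p = 0.33). The other clamp subunit gene Rad1 (-0.61 ± 0.16, adjusted p = 0.0379) and the clamp loader gene Rad17 (-0.60 ± 0.15, adjusted p = 0.0301) fell, though Rad1 passed in none of 6 leave-one-out fits (adjusted p = 0.115 without mES replicate 2) and Rad17 in 1 (adjusted p = 0.0985 without EpiSC replicate 1).

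Of the kinases, Chek2 had 1.38, 1.60 and 0.930 in mES and 0.549, 0.688 and 0.495 in EpiSC. No value overlapped (-1.15 ± 0.26, adjusted p = 0.0214), and was called in 2 of 6 leave-one-out fits (adjusted p = 0.0758 without EpiSC replicate 3). Chek1, which holds the cycle when forks stall, had 2.42, 2.66 and 2.15 against 1.29, 1.77 and 1.52 (-0.67 ± 0.19, adjusted p = 0.0449), with a second probe at -0.25 and a call in 1 of 6 leave-one-out fits (adjusted p = 0.133 without EpiSC replicate 1). Atm, the kinase that responds to double-strand breaks, overlapped fully, at 0.851, 0.829 and 0.553 against 0.673, 0.788 and 0.724 (-0.01 ± 0.22, adjusted p = 0.983). Its second probe gave -0.44 and did not pass (adjusted p = 0.28). Of 7 checkpoint genes 5 fell (71.4%, beside 15.1% of all genes) and 0 rose, and the median was -0.61. Rad18, the ubiquitin ligase that opens translesion synthesis, fell as well (-0.82 ± 0.18, adjusted p = 0.0209; adjusted p = 0.0711 without EpiSC replicate 3), with -0.15 at its other probe.

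Of 9 PARP genes outside the main repair enzymes 3 rose (33.3%, beside 11.4% of all genes) and 0 fell, and the median was 0.39. Parp8, which adds single ADP-ribose units, had 0.243, 0.146 and 0.311 in mES and 0.721, 1.01 and 1.69 in EpiSC. All EpiSC values were higher, and the rise was 4.81-fold (2.27 ± 0.40, adjusted p = 0.0103). Parp3 rose from 0.114, 0.0875 and 0.126 to 0.238, 0.219 and 0.222 (1.07 ± 0.19, adjusted p = 0.0108), with 0.43 at its second probe, which did not pass. Parp11 rose from 0.556, 0.428 and 0.509 to 0.913, 1.11 and 0.712 (0.86 ± 0.22, adjusted p = 0.0338), but passed in 1 of 6 leave-one-out fits (adjusted p = 0.0985 without mES replicate 2). EpiSC replicate 3, low in fibroblast markers, was the highest of the group for Parp9 (4.18), Parp12 (2.71) and Parp14 (4.75), antiviral-type PARPs known to respond to interferon, which did not pass. Among the 4 other genes that share a name, Atp23, a mitochondrial protease gene, fell (-0.89 ± 0.18, adjusted p = 0.0167; adjusted p = 0.0611 without EpiSC replicate 1), while the cohesin gene Rad21 did not pass (-0.24 ± 0.17, adjusted p = 0.326).

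**Figure D4:**
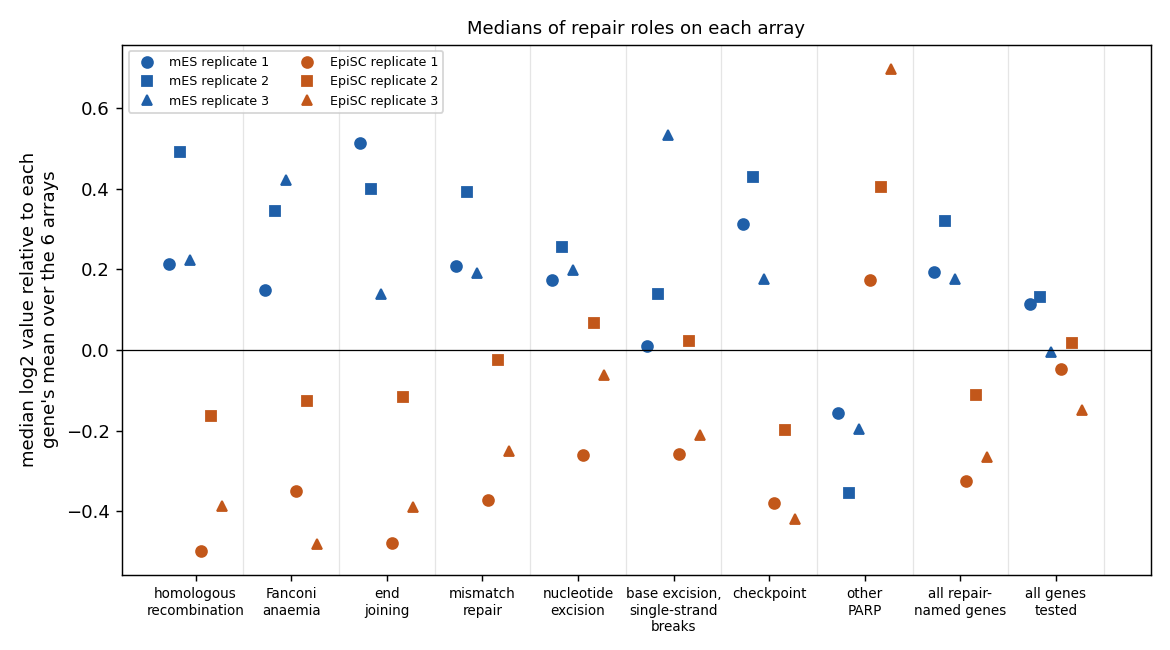
Median log2 value of each role on each array, after taking off the gene's own 6-array mean (blue, mES; orange, EpiSC; symbols, replicates 1 to 3). For all repair genes the mES arrays lie at 0.19, 0.32 and 0.17 and the EpiSC arrays at -0.33, -0.11 and -0.26; for the other PARPs the mES arrays lie below 0 and the EpiSC arrays above it.

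The EpiSC arrays were not alike. EpiSC replicate 2, line EpiSC-7 at passage 20, had the highest value of its group for 52 of 71 repair genes and for 22 of the 25 that fell, and so lay nearest to the mES arrays. With the gene's own 6-array mean taken off, the median over the repair genes was -0.33, -0.11 and -0.26 on EpiSC replicates 1 to 3 and 0.19, 0.32 and 0.17 on mES replicates 1 to 3. For all genes it was -0.05, 0.02 and -0.15 in EpiSC and 0.11, 0.13 and -0.01 in mES. Replicates 2 and 3 shared a line and a slide, and a difference between them has no replicate. Proliferation markers ranked the EpiSC arrays in the same order as the repair genes, but not the mES arrays, where replicate 2 had their lowest median. Over the 14 with a value on all 6 arrays their medians were 0.17, 0.13 and 0.16 in mES and -0.31, 0.01 and -0.07 in EpiSC. Their summed scaled signal was 495, 496 and 503 against 332, 437 and 394. Of all 15 markers 2 fell. Their part in the repair result was not tested. The fibroblast markers did not follow the groups (medians 0.38, -1.70 and 1.40 against 1.07, 0.39 and -1.85).

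Several genes carried more than 1 probe, and these did not always give the same answer. In 36 genes there were 46 further probes, of which 36 had the sign of the brightest probe. For the 13 called genes with a further probe, 12 of 13 had the same sign and 5 passed by themselves, the exception in sign being Msh5. Rad23b, a partner of Xpc, was at -0.64 ± 0.24 by its brightest probe (adjusted p = 0.0917) and at 0.11, 0.18 and 1.02 by the others, the last of which passed (adjusted p = 0.0374). Fancg gave -0.55 by its brightest probe, with -0.71 (adjusted p = 0.0211) and 0.56 (adjusted p = 0.0496) at the others. For these 2 genes no direction is given.

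**Figure D5:**
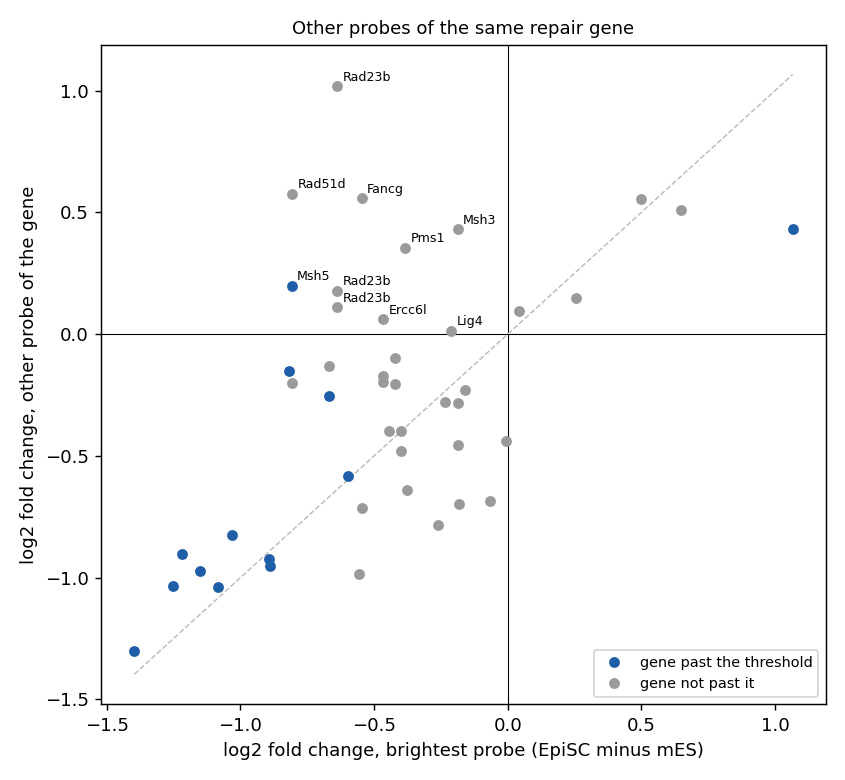
Log2 fold change (EpiSC minus mES) of the 46 further probes against that of the brightest probe of the same gene; blue, genes past the threshold; grey, others; the dashed line marks equality. Of the 46 points 36 lie in the quadrants of equal sign, and those that do not include 3 probes of Rad23b and 1 each of Fancg and Rad51d.

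Partners of these pathways, from lists without the genes above, fell in part and rarely rose. Of 32 measured partners of end resection and recombination 8 fell and 0 rose, among them Hells (-1.18), Fignl1 (-1.02) and Bard1, the Brca1 partner (-1.37 ± 0.33, adjusted p = 0.0283; adjusted p = 0.0876 without EpiSC replicate 1). Of 12 Fanconi partners 4 fell, including Ube2t, the conjugating enzyme of Fancl (-1.41 ± 0.40, adjusted p = 0.0455; adjusted p = 0.125 without EpiSC replicate 1), and 1 rose, the transcription factor Hes1 (1.63 ± 0.48, adjusted p = 0.0485; adjusted p = 0.142 without EpiSC replicate 3). Of 14 end joining partners Dclre1c, the Artemis nuclease (-0.98), and Rif1 (-1.11; adjusted p = 0.128 without mES replicate 1) fell, and the kinase gene Prkdc did not pass (-0.64 ± 0.21, adjusted p = 0.0628). Of 17 base excision partners 1 fell, the glycosylase gene Nthl1 (-1.12 ± 0.19, adjusted p = 0.00843), and 1 rose, the thymine glycosylase gene Tdg (0.69 ± 0.18, adjusted p = 0.0359), which passed in none of 6 leave-one-out fits. These lists fell in 25.0%, 33.3%, 14.3% and 5.9% of their measured genes, beside 15.1% of all genes.

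Of 18 nucleotide excision partners 6 fell (33.3%, beside the same 15.1% of all genes) and 0 rose, among them Cul4b (-1.31), Gtf2h1 of the TFIIH complex (-1.25) and Xab2 (-1.01). Of 14 mismatch partners 3 fell (21.4%, near that share) and 0 rose, the clamp loader gene Rfc5 (-1.08; adjusted p = 0.0556 without EpiSC replicate 3) and the single-strand binding genes Rpa2 (-0.99) and Rpa1 (-0.84; adjusted p = 0.0711 without EpiSC replicate 1), which stand in several lists. Of 15 genes of translesion synthesis and direct reversal 5 fell (33.3%) and 0 rose, led by the dealkylase gene Alkbh2 (-1.64), the polymerase genes Poli (-1.38) and Polk (-1.23), while Mgmt did not pass (-0.55 ± 0.21, adjusted p = 0.0994). Of 26 replication fork genes 10 fell (38.5%) and 0 rose, with a median of -0.62.

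Among 25 checkpoint partners 8 fell (32.0%, beside 15.1% of all genes) and 0 rose. Hus1b, the paralog of the third clamp subunit, was at 0.225, 0.219 and 0.202 in mES and not well above background on any EpiSC array, which makes it at least 13.0-fold lower, a bound that sets EpiSC at the faintest signal still well above background (adjusted p = 0.000167). With Rad9b, the variant subunits of the clamp were thus both lower, though Hus1b entered the comparison through mES alone. Trp53, the p53 gene, was itself not past the threshold, at 2.32, 2.79 and 2.60 against 3.59, 3.67 and 3.67 (0.51 ± 0.16, adjusted p = 0.0558), with all EpiSC values the higher ones. Of 24 listed p53 targets 16 fell (66.7%) and 1, Btg2, rose (1.12 ± 0.31, adjusted p = 0.0407; adjusted p = 0.107 without mES replicate 1), with a median of -1.21. The cell cycle inhibitor gene Cdkn1a had 3.42, 2.22 and 2.56 against 0.981, 1.17 and 0.590 (-1.61 ± 0.31, adjusted p = 0.0132). The p53 inhibitor gene Mdm2, which is also a target, had 7.77, 8.32 and 8.28 against 3.96, 3.67 and 3.67 (-1.11 ± 0.15, adjusted p = 0.00421). In both genes the groups were apart. Tigar (-2.995), Ccng1 (-2.31; adjusted p = 0.0513 without EpiSC replicate 3) and Trp53inp1 (-2.03) fell the most. The size for Ccng1 was not stable, from -2.78 to -0.94 in leave-one-out fits. Of 18 measured genes of meiotic recombination 16 fell (88.9%) and 0 rose. Several of them, such as Hormad1, Syce1 and Sycp3, were well above background on 0 of 3 EpiSC arrays. Such genes entered through mES alone, so that their direction was largely set by the filter. Dmc1, the meiotic recombinase, had 0.307, 0.573 and 0.495 in mES and at most 0.147 in EpiSC, where 1 of 3 arrays had it well above background, so no fold is given. It fell (adjusted p = 0.0348) and passed in 1 of 6 leave-one-out fits (adjusted p = 0.103 without EpiSC replicate 1).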

How the data were processed

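Cy3-labelled RNA of 6 samples was hybridised to 1-colour Agilent arrays. Per the file headers, the deposited scanner files come from Agilent's Feature Extraction (9.1.3.1) and hold a linear intensity per spot, corrected within its array and not scaled between arrays. The series' value table, an intensity deposited by the authors, differed from that signal by at most 0.00716 on the log2 scale and was used as an alternative; 0 of its per-sample columns were left unused.

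From the log2 intensity of an array its 75th percentile was subtracted, without control spots and spots marked as outliers. Probes were kept where all arrays of 1 or both groups had them well above background and no group missed more than 1 value, and each gene stands by its kept probe of highest mean. Probes were named through RefSeq accessions (GRCm38.p6, 22951 of 41174 probes, 55.7%), then through the file name they share with such a probe (4520). The probes' genome build is not given in the sources. The comparison used limma 3.58.1 in R 4.3.3 (lmFit and eBayes, no covariate, residual degrees of freedom 4, prior 2.5), two-sided, with Benjamini-Hochberg adjustment over all 20127 genes, and errors are its standard errors. The fit was tested on simulated data. The median standard error was 0.21 among repair genes, and 3 arrays per group limit the precision. Replicates are numbered in deposit order.

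The genes and lists were chosen with earlier results of these data known. Named genes follow a rule: the 12 largest changes in each direction among repair genes past the threshold with groups that do not overlap, a set of repair genes whatever their values, and up to 3 genes of each partner list in each direction. Genes named outside it, such as Fancc, Rad51b and Rad51d, the PARPs that did not pass, Rad23b and Fancg, were chosen after their values were seen. Promoter sequences are RefSeq's. Of the measured repair genes, 3 stand in the counts and are not reported here by name.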

Additional observations from a re-analysis of the deposited data

How the results depend on the processing

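The counts of calls varied with the arrays used. With 1 array left out, 9 to 27 repair genes and 2872 to 4846 genes of all passed, against 28 and 5344. With only the arrays at position 4 the counts were 8 and 2653, and with neither of the arrays low in fibroblast markers, an alternative chosen after seeing the data, 4 and 1548; both have 4 arrays. With the slide as a random block they were 47 and 11477, with a negative correlation (-0.68) that lowers the errors, so that calls gained there are no support. Without a filter on dim probes 8580 of all genes passed. In the other settings (median scaling 23, quantile normalization 27, normexp 30, the EpiSC-7 arrays averaged 20) the count of repair genes stayed within 1.5 times. The median over the repair genes kept its sign in every alternative, and so did the medians of the 11 roles.

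Of the repair genes that were not called, 11 changed sign in 25 values in all. With median scaling Atm was at 0.081, Fancm at 0.024 and Parp16 at 0.013. With quantile normalization Xrcc1 was at 0.053 and Fance at 0.094, with normexp Atm at 0.0032, with the slide as a block Atm at 0.078 and Fancm at 0.0067, and with the mean of all probes Rad23b at 0.17. At position 4 Parp16 was at 0.081, Fancm at 0.075, Parp2 at 0.0019 and Parp12 at -0.22. With neither array low in fibroblast markers Atm was at 0.086, Parp16 at 0.24 and Fancb at 0.012. In leave-one-out fits Atm ranged from -0.21 to 0.10, Fancm from -0.34 to 0.16, Parp16 from -0.40 to 0.20, Parp12 from -0.050 to 0.64, Parp14 from -0.58 to 0.097 and Ogg1 from -0.18 to 0.64.

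No paired analysis was possible because replicates are numbered in deposit order, which pairs no samples. Of the 28 called repair genes 9 passed whichever single array was left out. Signal over background did not limit the 71 measured genes, which were well above it on all 6 arrays, but the dim probe of Msh5 lies near it.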

Other observations

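Fanci, Rad54b and Ercc6l2 belong to the same families by their current names, but carry clone names on the array and so fell outside the rule. Fanci, which pairs with Fancd2, fell (log2 fold change -1.72 ± 0.22, SE, n = 3 per group, limma adjusted p = 0.00361), and so did Rad54b, a paralog of Rad54l (-1.19 ± 0.27, adjusted p = 0.0218). Ercc6l2 did not pass (-0.30 ± 0.15, adjusted p = 0.189), although its groups did not overlap.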
